A study of Mus musculus with 14 samples.

Results

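The genes that license replication origins and run the DNA replication fork were followed in mouse MLL-AF9-Cas9+ leukemia cells after transduction with sgRNA against Sgf29. The set was chosen by gene symbol, from origin licensing to the fork checkpoint, and takes 52 of the 22155 genes in the count table. All 52 were among the 11169 genes with enough reads to be tested. RNA-seq covered 6 libraries, 3 of cells transduced with sgCtrl and 3 of cells transduced with sgSgf29, out of 14 samples in the series. The chromatin immunoprecipitation samples were not analysed here. Cells of both groups carry the MLL-AF9 fusion, express Cas9, received their sgRNA by lentivirus in the ipUSEPR vector, and were selected in puromycin at 2 μg/ml for 3 days, and the labels separate the groups by the sgRNA. Sgf29 is the subunit of the SAGA and ATAC histone acetyltransferase complexes that reads methylated histone H3. The sources do not say whether the 3 libraries of a group came from separate cultures or from different sgRNA sequences, and the spread that the p-values measure may therefore be technical.

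Origins are licensed in G1, when the origin recognition complex, Cdc6 and Cdt1 load the MCM2-7 helicase on DNA as an inactive double ring, and geminin binds Cdt1 to prevent a second loading after S phase has begun. The Dbf4-dependent kinase Cdc7, Mcm10, Cdc45 and the GINS complex then turn the loaded rings into moving helicases. Polymerase alpha with primase starts each new strand, polymerases epsilon and delta extend it on the PCNA clamp that replication factor C (RFC) loads, and the fork protection and checkpoint proteins keep polymerase and helicase together. Dividing leukemia cells depend on this machinery, and the E2F transcription factors drive many of its genes at the G1/S transition.

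Gene counts ranged from 16003990 to 21786618 per library, and libraries within a group always differed by more than sampling noise. Sgf29 itself measured 36.1, 40.4 and 40.4 CPM (read counts scaled to a common library size, after TMM normalisation) with sgCtrl and 12.6, 13.4 and 17.4 CPM with sgSgf29, and its log2 fold change was -1.43 (standard error 0.11, quasi-likelihood test of edgeR, adjusted p = 2.9e-10). The groups did not overlap. Sgf29 shares some exonic bases with Sult1a1 on the opposite strand. Ribosomal protein genes took 18.8% to 19.5% of gene counts with sgCtrl and 12.1% to 13.6% with sgSgf29, and the TMM factors were 0.917 to 0.934 and 1.06 to 1.10. All 20 markers of mature myeloid cells that were examined were tested, and 16 were higher and 3 lower (Ly6c2, Ltf and Camp) in the sgSgf29 cells. Of all genes tested, 35.4% were higher and 34.4% lower. Fcgr1, 1 of the 16 higher, had 0 counts in all 3 sgCtrl libraries and 37, 44 and 44 counts with sgSgf29. With no sgCtrl count, Fcgr1 could not have been called lower. The summed level of the 20 markers ranged from 11085 to 11668 CPM with sgCtrl and from 28967 to 30504 CPM with sgSgf29. S100a9 and S100a8 had the highest levels of the 20 and weigh most in this sum. S100a9 ran from 3236 to 3682 CPM with sgCtrl and from 12680 to 13530 CPM with sgSgf29. S100a8 ran from 2704 to 2865 CPM and from 7615 to 8404 CPM. Of 17 markers of erythroid, lymphoid, mast cell, basophil, platelet, stromal, endothelial and epithelial cells, 8 had no count in any library, Hbb-bs, Cd3e, Pf4, Cdh5 and Epcam among them, and 14 had a mean under 1 CPM. Of the 3 that were tested, the basophil marker Mcpt8 was lower (from a mean of 9.61 to 2.80 CPM, -1.78, adjusted p = 1.1e-08), the endothelial and leukocyte marker Pecam1 was higher (0.91, adjusted p = 0.0001) and Gp9 did not pass. Of 10 markers of leukemic progenitors, 4 were lower (Kit, Mpo, Myb and Hoxa9) and 4 higher (Flt3, Meis1, Spi1 and Ptprc) among 9 tested, and Cd34 had no count in any library.

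Nearly all replication genes of the set had less mRNA in the sgSgf29 cells. Of the 52 genes, 49 were lower and 0 higher at an adjusted p under 0.05, and Pcna, Rfc1 and Dna2 did not pass. By edgeR at an unadjusted p under 0.05, and at an adjusted p under 0.05 by DESeq2 and by limma-voom, the number higher was also 0. The lower share of 94.2% stands beside 34.4% of all genes tested that were lower and 35.4% that were higher. The median log2 fold change of the 52 genes was -0.55 (mean -0.57, SD 0.30 over genes, quartiles -0.76 and -0.38), where the median of all genes tested was 0.01. For the same number, 49, the highest sgSgf29 library lay under the lowest sgCtrl library, as was the case for 35.1% of all genes tested, and for none did the groups separate in the other direction, as for 37.0% of all genes. The summed level of the set was 5218, 5276 and 5303 CPM with sgCtrl and 3571, 3771 and 3935 CPM with sgSgf29. As a share of gene counts before scaling, this was 0.478%, 0.493% and 0.487% against 0.379%, 0.415% and 0.429%. In RNA from whole cultures, fewer cells in a phase or of a type and less RNA per cell cannot be told apart. The part that the rise in mature myeloid markers had in the fall of the replication genes was not tested.

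The changes were spread over a range of sizes rather than sharing one. The log2 fold changes ran from -1.35 for Orc1 to 0.16 for Pcna, with standard errors of 0.06 to 0.13. Orc1, Chek1, Mcm10 and Mcm8 fell by 2-fold or more (log2 fold changes of -1.35, -1.06, -1.01 and -1.0), 23 genes lay between -1 and -0.5, 23 between -0.5 and 0, and 2 above 0. The plot of fold changes by role shows how widely single roles were spread, from -1.35 to -0.47 in the origin recognition complex and from -0.49 to -0.20 in the MCM2-7 helicase. With library size alone as the scaling, the median of all genes moved to 0.24 and that of the 52 genes to -0.32, and 36 were lower and 2, Pcna and Rfc1, higher (0.40 and 0.31). For all genes that scaling gave 2385 lower and 5575 higher.

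**Figure D1:**
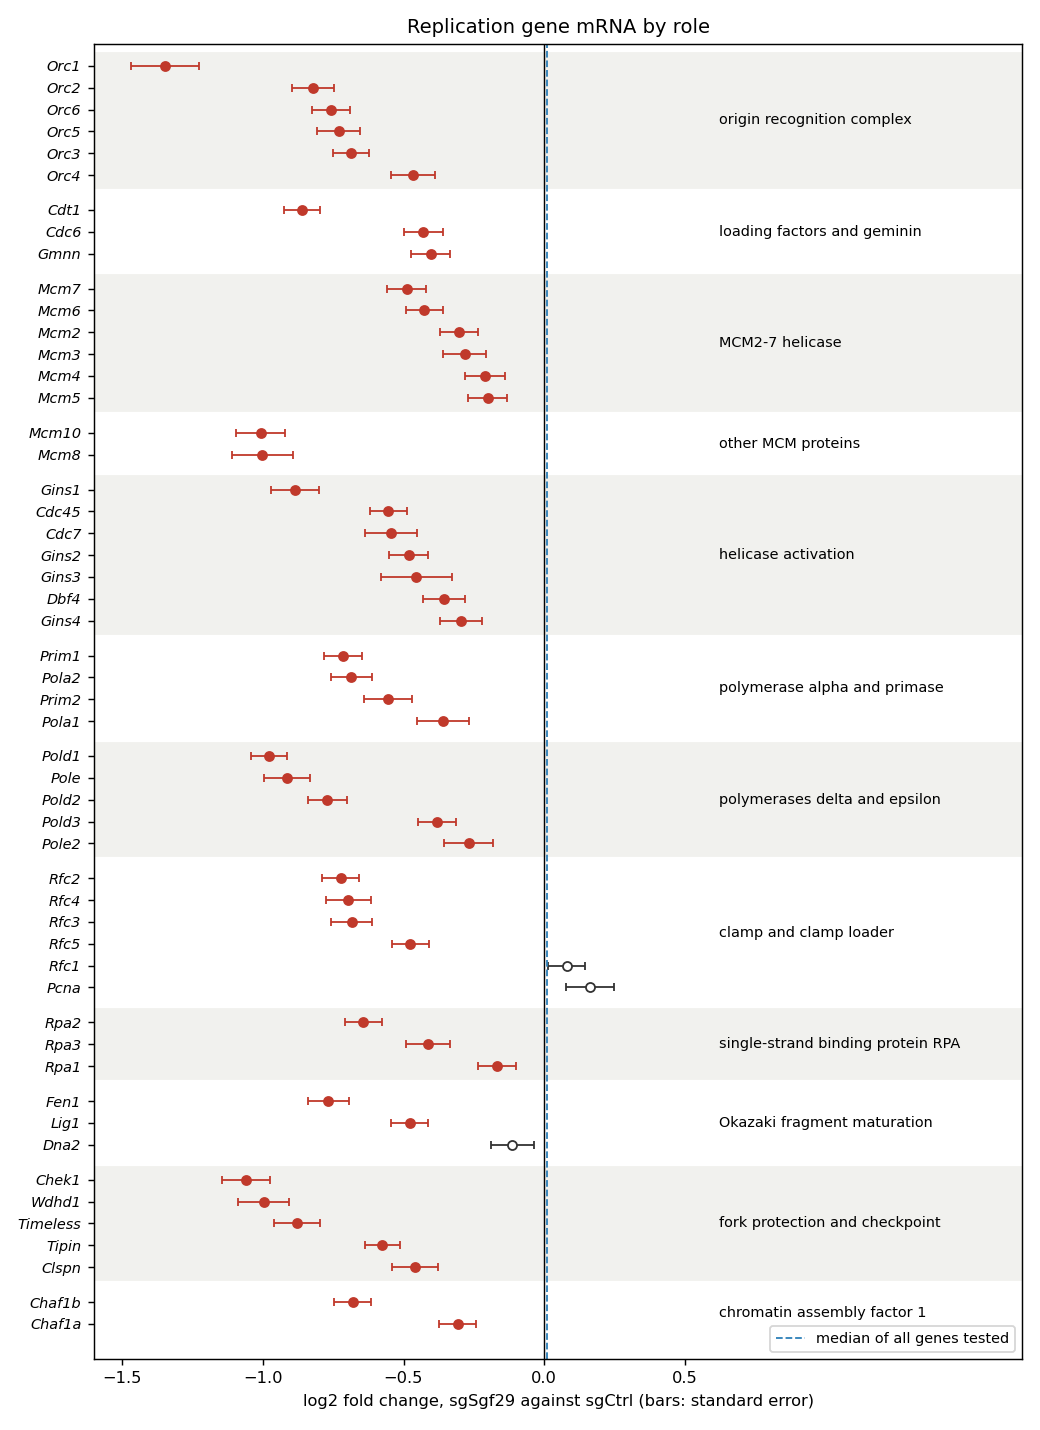
Log2 fold change of each of the 52 replication genes (x axis, sgSgf29 against sgCtrl, bars are standard errors of the edgeR fit) by role (y axis), with filled points for an adjusted p under 0.05 and open points for the 3 genes that did not pass. The points run from -1.35 (Orc1) to 0.16 (Pcna), and the dashed line marks the median of all genes tested, 0.01. With library size scaling Mcm4, Mcm5, Rpa1 and Dna2 move above 0.

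The heat map of single libraries shows how evenly the change ran within a group. Relative to the sgCtrl mean of each gene, the median over the 52 genes was -0.62, -0.55 and -0.51 (log2) in sgSgf29 libraries 1, 2 and 3. Library 1 was the lowest sgSgf29 library for 38 genes, and library 3 was the highest for 35. The same libraries contained 12.6, 13.4 and 17.4 CPM of Sgf29 mRNA and a summed myeloid marker level of 28967, 29475 and 30504 CPM. Whether these levels are related across the 3 libraries was not tested. Within sgCtrl, library 3 was both the lowest for 27 genes and the highest for 22.

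**Figure D2:**
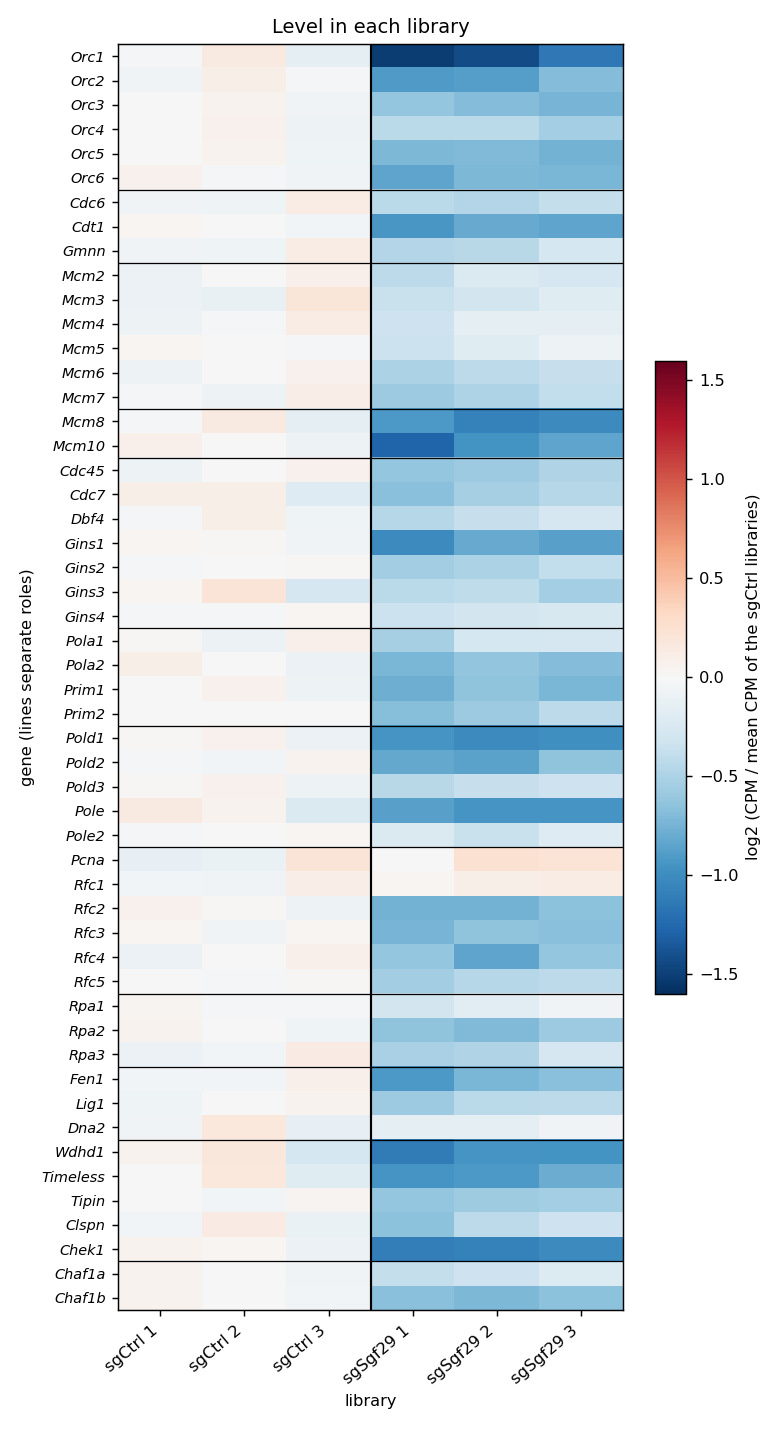
Level of each of the 52 genes (rows, grouped by role with lines between roles) in each of the 6 libraries (columns), as the log2 ratio of its CPM to the mean of the 3 sgCtrl libraries. All 3 sgSgf29 columns are below 0 for every gene but Pcna and Rfc1, and the Orc1 row is the darkest.

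The promoters of the set often held the letters that E2F factors read. RefSeq windows on GRCm38.p6, 250 bases before to 50 bases after a start site, were matched for 43 of the 52 genes, which had 52 windows between them. Searched on both strands for TTTCCCGC, TTTCGCGC, TTTGCCGC and TTTGGCGC, 17 of the 43 genes had a match (39.5%), compared with 4.86% of 8737 tested genes with a window and 2.6% of all 27025 genes with one. By window the shares were 32.7% of 52, 4.04% of 11146 and 2.26% of 32851. CCAAT, the letters of the NF-Y factor, were found for 55.8% of the 43 genes, 43.4% of tested and 41.1% of all genes. The letters TTTGAA or TTCGAA of the cell cycle homology region, which mark genes of G2 and mitosis, were found for 20.9%, 16.6% and 21.7%. All 17 genes with the E2F-type letters were lower, with a median log2 fold change of -0.46 and a mean of -0.58, and 23 of the 26 with a window but without the letters were lower, with a median of -0.66 and a mean of -0.56. The order of the medians and that of the means are opposite. The 9 genes without a window here (Gmnn, Mcm4, Gins1, Gins2, Gins4, Prim2, Pole, Rfc2 and Tipin) were all lower, with a median of -0.56. Of all 52 genes 94.2% were lower, and of all genes tested 34.4%. The counts of the genes with and without the letters differ only by Pcna, Rfc1 and Dna2, which did not pass. None of these motifs contains another. A match is a run of letters and not a bound site, and the absence of a match says only that these letters are not in this window.

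The 250 bases before a RefSeq start site are printed for 6 genes, 5′ to 3′ on the strand of the gene, to show windows with the letters beside large and small falls and windows without them beside a large fall and no call. The Orc1 and Cdc6 windows lie inside the annotated genes, which begin at 108575705 and 98907709. The last bases of the Mcm5 window lie past its gene start, 75109468. For these 3 genes the start site is not the first base of the gene. Capitals mark the E2F-type letters, and overlapping matches run together. Orc1 (chr4:108579204-108579453, plus strand) had the largest fall of the set. Cdc6 (chr11:98907901-98908150, plus strand), Mcm5 (chr8:75109259-75109508, plus strand) and Mcm6 (chr1:128359706-128359955, minus strand) had falls in the smaller part of the range. Chek1 (chr9:36726659-36726908, minus strand) fell to less than 0.5 of its level, and Pcna (chr2:132253181-132253430, minus strand) did not pass the test.
Orc1: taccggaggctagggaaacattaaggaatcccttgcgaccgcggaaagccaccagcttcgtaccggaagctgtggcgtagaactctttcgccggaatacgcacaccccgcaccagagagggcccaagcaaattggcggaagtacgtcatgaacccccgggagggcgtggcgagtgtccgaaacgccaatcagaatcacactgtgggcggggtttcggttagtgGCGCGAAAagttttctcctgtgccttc
Cdc6: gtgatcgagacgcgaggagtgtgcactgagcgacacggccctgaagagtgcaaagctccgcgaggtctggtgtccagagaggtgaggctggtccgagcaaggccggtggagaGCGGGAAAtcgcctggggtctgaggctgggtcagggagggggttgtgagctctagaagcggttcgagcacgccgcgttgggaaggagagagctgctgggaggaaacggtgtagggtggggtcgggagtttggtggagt
Mcm5: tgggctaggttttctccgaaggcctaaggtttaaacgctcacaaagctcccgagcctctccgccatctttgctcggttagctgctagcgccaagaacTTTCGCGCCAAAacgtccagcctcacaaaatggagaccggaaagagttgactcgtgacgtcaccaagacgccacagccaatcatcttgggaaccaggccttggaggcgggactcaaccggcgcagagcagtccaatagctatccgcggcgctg
Mcm6: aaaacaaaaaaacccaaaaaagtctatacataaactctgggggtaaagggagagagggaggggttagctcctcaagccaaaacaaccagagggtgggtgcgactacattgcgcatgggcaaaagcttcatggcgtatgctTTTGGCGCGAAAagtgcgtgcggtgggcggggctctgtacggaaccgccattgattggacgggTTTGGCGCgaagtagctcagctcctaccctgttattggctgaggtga
Chek1: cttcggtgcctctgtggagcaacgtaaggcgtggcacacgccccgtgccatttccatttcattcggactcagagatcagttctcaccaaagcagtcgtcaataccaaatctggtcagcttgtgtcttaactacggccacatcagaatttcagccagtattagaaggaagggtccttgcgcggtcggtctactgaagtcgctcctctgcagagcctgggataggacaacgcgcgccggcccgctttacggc
Pcna: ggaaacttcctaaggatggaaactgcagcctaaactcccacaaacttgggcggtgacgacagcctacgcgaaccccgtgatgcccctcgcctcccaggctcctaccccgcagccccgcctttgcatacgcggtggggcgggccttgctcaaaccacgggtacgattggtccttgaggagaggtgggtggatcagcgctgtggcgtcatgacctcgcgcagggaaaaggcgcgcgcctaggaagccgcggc
The Orc1 match begins 27 bases before the start site and the Cdc6 match 138 bases before it. Mcm5 had 2 overlapping matches, and Mcm6 had 3, of which 2 overlap. Windows without a single capital belong to both the second largest fall of the set, that of Chek1, and to Pcna.

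The 6 genes of the origin recognition complex, which marks the sites where MCM rings are loaded, were all lower in the sgSgf29 cells, with a median log2 fold change of -0.74. Orc1, the subunit whose level rises and falls with the cell cycle, measured 22.1, 24.6 and 20.3 CPM with sgCtrl and 7.79, 8.25 and 10.1 CPM with sgSgf29. The lowest sgCtrl library lay above the highest sgSgf29 library, and the mean fell from 22.3 ± 2.15 to 8.72 ± 1.23 CPM (SD, n = 3, log2 fold change -1.35, standard error 0.12, adjusted p = 4e-09). The gene lies on chromosome 4 from 108575705 to 108616030 (GRCm38, plus strand) and shares no exonic base with another coding gene. Orc2, Orc6, Orc5 and Orc3 had log2 fold changes of -0.82, -0.76, -0.73 and -0.69. Orc4 had the smallest of the group, -0.47 (adjusted p = 2.2e-05).

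The loading factors fell by unequal amounts. Cdt1, which brings the MCM2-7 ring to the origin, measured 132, 129 and 125 CPM with sgCtrl and 67.4, 73.8 and 71.9 CPM with sgSgf29. The groups were far apart, and the log2 fold change was -0.86 (standard error 0.06, adjusted p = 2.5e-10). Its inhibitor geminin (Gmnn) measured 128, 127 and 144 CPM against 95.7, 97.4 and 109 CPM. Cdc6, the ATPase that loads the ring together with Orc1, measured 70.9, 70.6 and 80.2 CPM against 54.9, 53.4 and 56.6 CPM. Both Gmnn and Cdc6 were lower without overlap, with log2 fold changes of -0.40 and -0.43 and standard errors of 0.07 (adjusted p = 3.3e-05 and 1.5e-05).

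The ratio of Cdt1 to Gmnn counts, which no scaling between libraries can move, was 1.03, 1.02 and 0.872 with sgCtrl, against 0.704, 0.758 and 0.662 with sgSgf29. Each sgSgf29 ratio was below each sgCtrl ratio, and the mean went from 0.974 ± 0.0889 to 0.708 ± 0.0479 (SD, n = 3, log2 difference -0.46, exact permutation test, two-sided, p = 0.10). This p is the smallest that 3 libraries against 3 can give, and it was also 0.10 after adjustment over the 5 ratios tested.

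All 6 genes of the MCM2-7 helicase, the motor of the fork, were lower, with a median log2 fold change of -0.29. Mcm7 measured 257, 249 and 282 CPM with sgCtrl and 175, 187 and 199.8 CPM with sgSgf29 (log2 fold change -0.49, adjusted p = 2.4e-06). Mcm6 measured 281, 299.9 and 314 CPM against 209.7, 224 and 232 CPM (-0.43, adjusted p = 8.1e-06). These were the largest changes among the ring subunits, and neither gene's groups overlapped. Mcm2 measured 136, 146 and 154 CPM against 109, 124 and 120.5 CPM (-0.30, adjusted p = 0.00059). Mcm3 measured 247, 242 and 299.9 CPM against 206, 214 and 229.6 CPM (-0.28, adjusted p = 0.0028). Both fell without overlap, although sgCtrl library 3 stood above the other two for Mcm3.

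Mcm4 and Mcm5 changed least among the ring subunits. Mcm4 measured 114, 118 and 131 CPM with sgCtrl and 96.0, 109 and 109 CPM with sgSgf29, a log2 fold change of -0.21 (adjusted p = 0.013). Mcm5 measured 297, 289 and 287 CPM against 229, 254 and 276 CPM, a log2 fold change of -0.20 (adjusted p = 0.014). The gap between the groups was narrow for both. Mcm4 no longer passed without sgSgf29 library 1 (-0.14, adjusted p = 0.097) or sgCtrl library 3 (-0.15, adjusted p = 0.056), and Mcm5 no longer passed without sgSgf29 library 1 (-0.13, adjusted p = 0.10) or sgCtrl library 1 (-0.19, adjusted p = 0.055). With library size scaling, where the median of all genes was 0.24, Mcm2 and Mcm3 did not pass (-0.07 and -0.05) and Mcm4 and Mcm5 were at 0.02 and 0.03.

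The balance between the ring genes and the genes of the complex that marks origins was also compared within libraries. Summed Mcm2 to Mcm7 counts were 3.66, 3.57 and 4.22 times the summed Orc1 to Orc6 counts with sgCtrl and 4.74, 5.09 and 5.34 times with sgSgf29. The mean ratio went from 3.82 ± 0.351 to 5.06 ± 0.305 without overlap (log2 difference 0.41, exact permutation test, two-sided, p = 0.10, the smallest possible). Both MCM genes of the set that lie outside the ring had larger falls than any of the 6 within it. Mcm10, which acts when the helicase starts to move, measured 86.0, 81.7 and 76.8 CPM against 33.6, 42.1 and 45.3 CPM (-1.01, standard error 0.09, adjusted p = 2.4e-09), with no overlap. Mcm8, which acts in homologous recombination, was at -1.0 (adjusted p = 6.4e-08). Mcm9, an MCM gene outside both the ring and the set, did not pass (0.20, adjusted p = 0.08), although its groups did not overlap. It passed as higher with upper-quartile scaling (0.22, adjusted p = 0.049) and with library size scaling (0.43, adjusted p = 0.00079). Mcm9 was named after its values were seen.

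**Figure D3:**
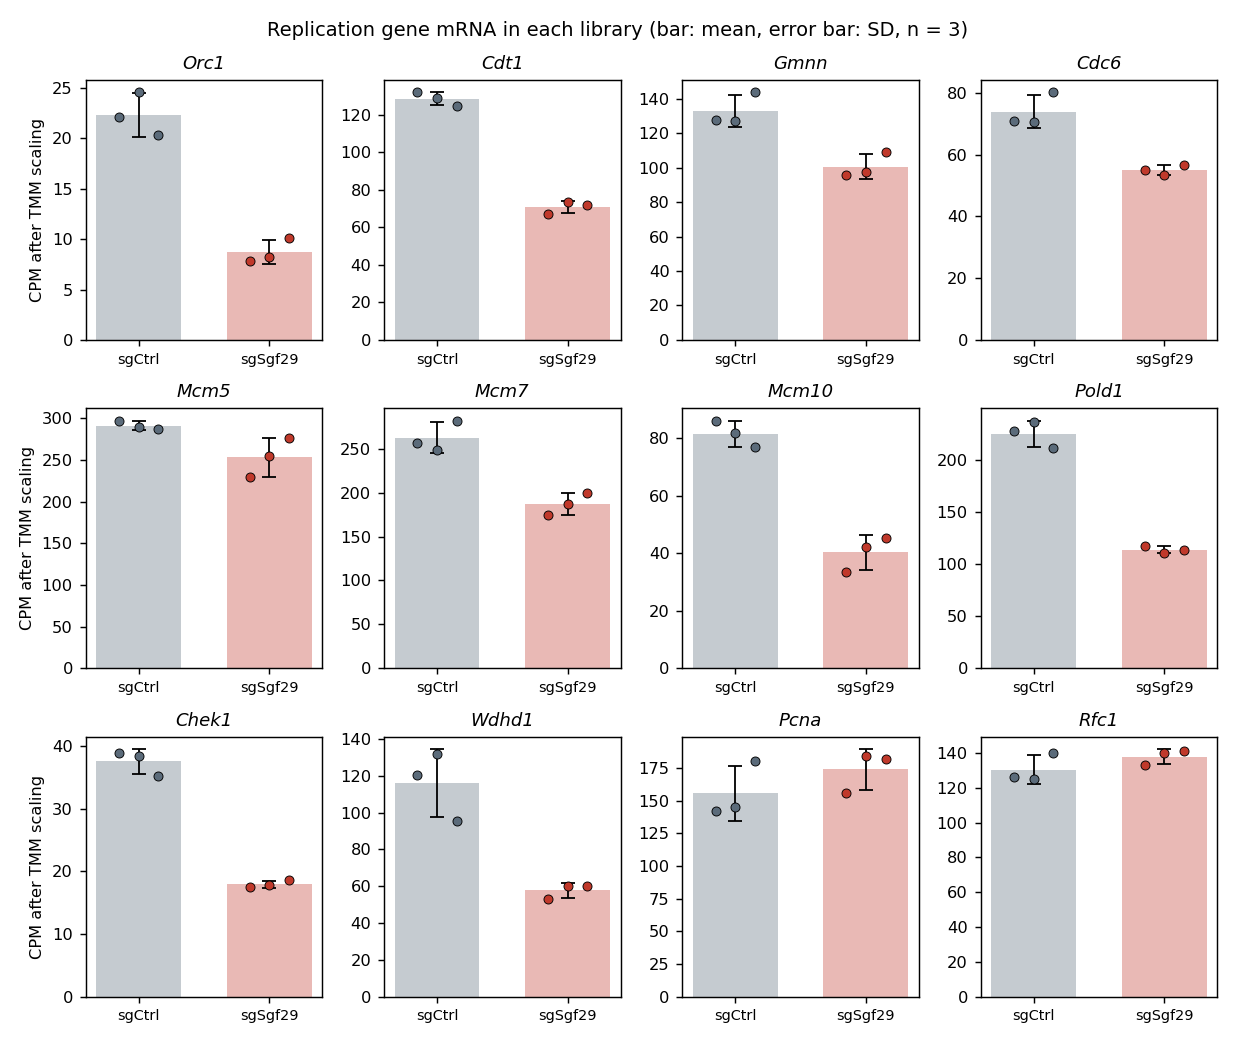
CPM after TMM scaling (y axis, linear, from 0) of 12 replication genes in the 3 sgCtrl and 3 sgSgf29 libraries, with bars for means, error bars for SD and points for single libraries. The groups are separate for Orc1, Cdt1, Gmnn, Cdc6, Mcm5, Mcm7, Mcm10, Pold1, Chek1 and Wdhd1 and overlap for Pcna and Rfc1.

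All 7 genes of helicase activation were lower, with a median log2 fold change of -0.48. Gins1, a subunit of the GINS complex, which joins Cdc45 and the MCM ring in the active helicase, measured 39.7, 39.4 and 37.1 CPM with sgCtrl and 19.1, 22.1 and 21.3 CPM with sgSgf29. The groups stood far apart, and the log2 fold change was -0.89 (standard error 0.09, adjusted p = 1.1e-08). The other GINS genes had smaller changes, -0.48 for Gins2, -0.45 for Gins3 and -0.30 for Gins4. Cdc45 had -0.55. The kinase Cdc7 had -0.54 and its activator Dbf4 -0.36, and the ratio of Cdc7 to Dbf4 counts was 0.724, 0.664 and 0.609 with sgCtrl and 0.576, 0.593 and 0.580 with sgSgf29. The ratio was lower without overlap (log2 difference -0.19, exact permutation test, two-sided, p = 0.10, the smallest possible). Gins2 shares 2758 exonic bases with Gse1 on the opposite strand, and how the counting used strand is not given in the sources used here.

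All 4 genes of polymerase alpha and primase, which lay down the RNA-DNA primer, were lower, with a median of -0.62. Prim1, the catalytic primase subunit, measured 97.9, 102 and 91.9 CPM with sgCtrl and 56.7, 62.2 and 58.7 CPM with sgSgf29 (log2 fold change -0.72, standard error 0.07, adjusted p = 8e-09). The groups did not overlap. Pola2 and Prim2, the accessory subunits, had -0.69 and -0.56, and Pola1, the catalytic polymerase subunit, had -0.36 (adjusted p = 0.0017).

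The 5 genes of the elongating polymerases were all lower, with a median of -0.77. Pold1, the catalytic subunit of the lagging-strand polymerase delta, measured 228, 236 and 211 CPM with sgCtrl and 117, 111 and 114 CPM with sgSgf29. The mean went from 225 ± 12.6 to 114 ± 2.88 CPM (SD, n = 3, log2 fold change -0.98, standard error 0.06, adjusted p = 3.9e-11), the smallest adjusted p of the 52 genes. It lies on chromosome 7 from 44532744 to 44548815 (minus strand). Pole, the catalytic subunit of the leading-strand polymerase epsilon, had -0.92 (adjusted p = 3.8e-09). The accessory subunits Pold2, Pold3 and Pole2 had -0.77, -0.38 and -0.27. Pole2 no longer passed without sgSgf29 library 2 (-0.21, adjusted p = 0.076).

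The clamp and its loader did not move as one. Rfc2, a small subunit of RFC, measured 149, 144 and 134 CPM with sgCtrl and 84.5, 84.2 and 90.1 CPM with sgSgf29 (log2 fold change -0.72, standard error 0.06, adjusted p = 4.3e-09). The groups did not overlap, and Rfc4, Rfc3 and Rfc5, the other small subunits, were also lower at -0.70, -0.68 and -0.48. Rfc1, the large subunit that directs the loader to PCNA at the fork, measured 126, 125 and 140.0 CPM against 133, 139.6 and 141 CPM. Pcna, the sliding clamp itself, measured 142, 145 and 180.2 CPM against 156, 184 and 182 CPM. The groups overlapped for both genes, whose log2 fold changes were 0.08 (standard error 0.07, adjusted p = 0.28) and 0.16 (standard error 0.08, adjusted p = 0.095). Their values in single libraries were looked up because they had not passed.

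Among the sgCtrl libraries Pcna was highest in library 3. Without that library Pcna passed as higher in the sgSgf29 cells (0.28, adjusted p = 0.0015), as did Rfc1 (0.14, adjusted p = 0.046), and Pcna also passed without sgSgf29 library 1 (0.24, adjusted p = 0.024) and with genes of low count kept in the fit (0.17, adjusted p = 0.031). Pcna lies on chromosome 2 from 132249286 to 132253180 (minus strand) and has 2 annotated pseudogenes, with which it may share reads. The ratio of Rfc1 counts to the summed counts of Rfc2 to Rfc5 was 0.373, 0.377 and 0.423 with sgCtrl and 0.638, 0.670 and 0.638 with sgSgf29, a log2 difference of 0.73. The ratio of Pcna to summed Mcm2 to Mcm7 counts was 0.106, 0.108 and 0.123 against 0.152, 0.166 and 0.156, a log2 difference of 0.50. Neither ratio overlapped between groups, and as they were chosen after the values were seen they are given as a description with no test.

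RFC's small subunits also serve loaders with other large subunits, which belong to the list of other replication factors. Chtf18, the large subunit of the loader that works with the leading-strand polymerase and sister chromatid cohesion, measured 78.9, 79.4 and 65.8 CPM with sgCtrl and 31.8, 32.0 and 34.0 CPM with sgSgf29 (-1.19, standard error 0.08, adjusted p = 4.6e-11). The groups did not overlap, and the ratio of Chtf18 to Rfc1 counts went from 0.577 ± 0.0926 to 0.236 ± 0.00591 (SD, n = 3). Dscc1, which joins Chtf18 in its loader, had -0.75, Atad5, of the loader that takes PCNA off DNA, had -0.86, and Rad17, of the loader of the checkpoint clamp, had -0.26 (adjusted p = 1.3e-05, 3.9e-06 and 0.0083). These last 3 and the ratio were chosen after their values were seen. Rad17 did not pass without sgSgf29 library 3 (-0.22, adjusted p = 0.052) or with library size scaling (-0.03, adjusted p = 0.75).

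**Figure D4:**
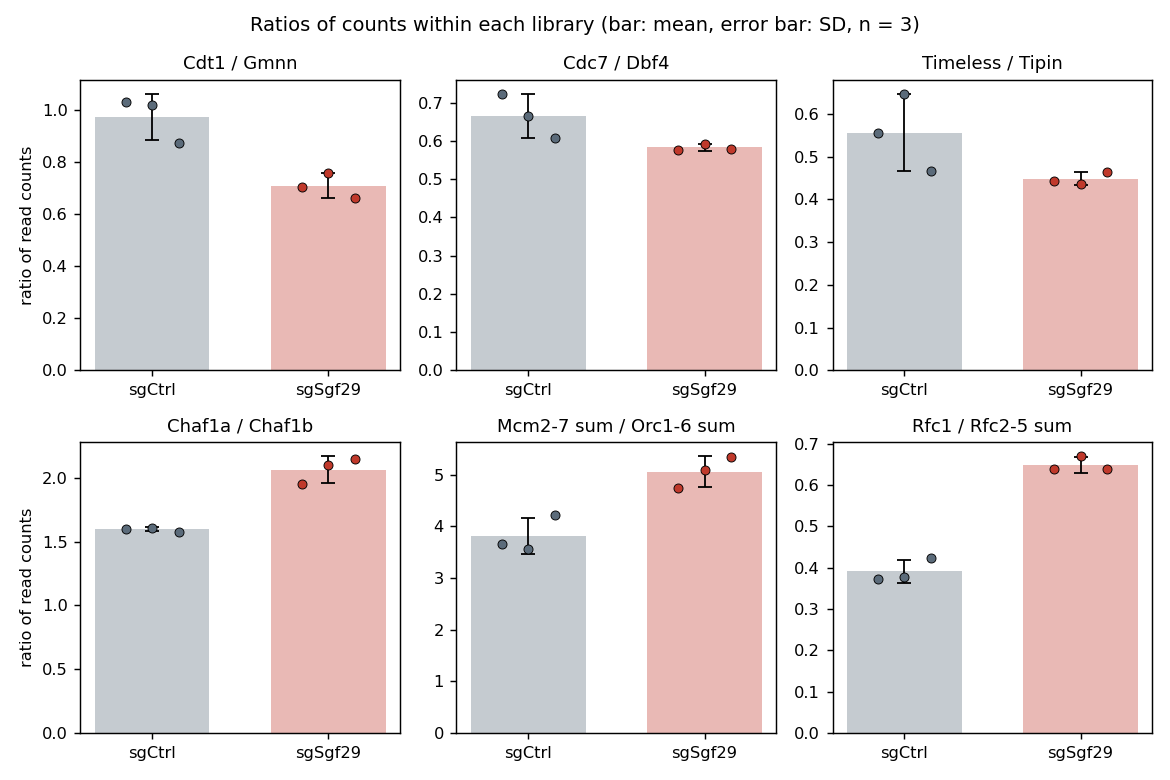
Ratio of read counts within each library (y axis, linear, from 0) for 6 pairs of genes or gene sums, with bars for means, error bars for SD and points for the 3 libraries of each group. The ratio of the MCM2-7 to the ORC genes and that of Rfc1 to Rfc2-5 are higher in all sgSgf29 libraries, at 4.74 to 5.34 and 0.638 to 0.670, than in all sgCtrl libraries, at 3.57 to 4.22 and 0.373 to 0.423.

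All 3 genes of replication protein A (RPA), which coats single-stranded DNA at the fork, were lower. Rpa2 measured 141, 136 and 129 CPM with sgCtrl and 86.3, 82.6 and 90.8 CPM with sgSgf29 (log2 fold change -0.64, standard error 0.06, adjusted p = 2.2e-08), without overlap. Rpa3 had -0.41. Rpa1, the large DNA-binding subunit, had the smallest change of any of the 49 genes called, -0.17 (adjusted p = 0.033). It did not pass with upper-quartile scaling (-0.14) or without sgCtrl library 1 (-0.15), sgSgf29 library 1 (-0.10) or sgSgf29 library 2 (-0.16), and was at 0.07 with library size scaling.

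Of the 3 genes of Okazaki fragment maturation, 2 were lower. Fen1, the nuclease that removes the displaced flap, measured 106, 106 and 115 CPM with sgCtrl and 57.6, 65.9 and 68.6 CPM with sgSgf29 (-0.77, standard error 0.07, adjusted p = 7.8e-09), with the groups well apart. Lig1, the ligase that seals the nick, had -0.48 (adjusted p = 1.9e-06). Dna2, a nuclease and helicase that trims long flaps, overlapped between groups (-0.11, adjusted p = 0.19) and passed as lower without sgCtrl library 3 (-0.18, adjusted p = 0.034).

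The 5 genes of fork protection and the checkpoint were all lower, and their median of -0.88 was the lowest of any role with more than 2 genes. Chek1, the kinase that carries the checkpoint signal from stalled forks, measured 38.9, 38.5 and 35.3 CPM with sgCtrl and 17.5, 17.8 and 18.6 CPM with sgSgf29. The groups were far apart, and the log2 fold change was -1.06 (standard error 0.09, adjusted p = 8.3e-10). Chek1 lies on chromosome 9 from 36708482 to 36726658 (minus strand) and shares no exonic base with another coding gene. Wdhd1, which tethers polymerase alpha to the helicase, had -1.0, and Clspn, the adaptor through which Chek1 is activated, had -0.46. Timeless and Tipin, which act as a pair, had -0.88 and -0.58. The ratio of Timeless to Tipin counts was 0.556, 0.648 and 0.466 with sgCtrl and 0.443, 0.436 and 0.465 with sgSgf29. The ranges of this ratio lay next to each other without overlap, and the log2 difference of -0.30 (exact permutation test, two-sided, p = 0.10, the smallest possible) was -0.19 without sgCtrl library 2.

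Both subunits of chromatin assembly factor 1 that were examined, which place new histones behind the fork, were lower. Chaf1b measured 81.1, 77.9 and 75.9 CPM with sgCtrl and 49.3, 47.4 and 49.8 CPM with sgSgf29 (-0.68, standard error 0.07, adjusted p = 1.1e-08), without overlap. Chaf1a had -0.31 (adjusted p = 0.00028), and the ratio of Chaf1a to Chaf1b counts went from 1.59 ± 0.0136 to 2.06 ± 0.105 (SD, n = 3, log2 difference 0.37, exact permutation test, two-sided, p = 0.10, the smallest possible). Chaf1a shares 4648 of its 8854 exonic bases with Ubxn6 on the opposite strand. In all, 13 of the 52 genes share exonic bases with another coding gene, 12 of them on the opposite strand (Orc2, Orc4, Orc6, Mcm7, Cdc45, Gins2, Rfc2, Rfc4, Rfc5, Fen1, Lig1 and Chaf1a) and Pole2 on the same strand. Of the 39 genes with no shared exonic base, 36 were lower (92.3%, beside 94.2% of the 52 genes and 34.4% of all genes tested), with a median of -0.56.

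Per kilobase of exon, the order of the transcripts shifted at its top and bottom. In the sgCtrl libraries Gmnn had the highest level of the 52 genes, 90.8 ± 6.29 CPM per kilobase of merged exons, and Pcna was in place 6 with 64.8 ± 8.92. Tipin, in place 2 with 86.3 ± 3.05, lay within the SD of Gmnn. In the sgSgf29 libraries Pcna was in place 1 with 72.6 ± 6.56 and Gmnn in place 2 with 68.6 ± 4.80 CPM per kilobase, values that lay within 1 SD of each other. With the longest coding transcript as the length, Pcna moved from place 3 to place 1. Orc1 moved to place 52, the lowest level of the set, by both lengths (2.51 ± 0.353 CPM per kilobase of merged exons), from place 47 or 49. By merged exons Pola1, at 2.68 ± 0.272 in sgSgf29, lay within the SD of Orc1. In sgCtrl Dbf4 and Mcm8, at 6.48 and 6.16, lay within the SD of Orc1 (6.41 ± 0.617). Within the MCM2-7 ring, Mcm5 and Mcm3 were the highest by merged exons in both groups (72.9 ± 1.37 and 70.1 ± 8.57 in sgCtrl, 63.4 ± 5.85 and 57.6 ± 3.26 in sgSgf29), and their difference was within the larger SD of the pair in each group.

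Replication factors outside the set were examined as a list of 41 genes that were all tested. Of these, 25 were lower (61.0%, median log2 fold change -0.36), 2 were higher (4.88%) and 14 did not pass. Among all genes tested, 34.4% were lower and 35.4% higher. With library size scaling 17 of the 41 were lower and 9 higher, beside 2385 lower and 5575 higher of all 11169 genes tested. Atr, the kinase that senses single-stranded DNA at stalled forks and activates Chek1, measured 78.7, 85.4 and 72.4 CPM with sgCtrl and 27.5, 26.7 and 26.2 CPM with sgSgf29 (-1.56, standard error 0.08, adjusted p = 4e-13). Recql4, a helicase of origin firing, measured 57.5, 58.4 and 50.5 CPM against 24.2, 25.1 and 23.8 CPM (-1.18, adjusted p = 5e-11). Both were lower without overlap. The 2 higher genes were Slbp, the histone mRNA binding protein (0.44, adjusted p = 0.00023), and Pold4, the smallest subunit of polymerase delta (0.22, adjusted p = 0.0065). Pole3, a histone-fold subunit of polymerase epsilon, was lower at -0.93, and its partner Pole4 did not pass (0.12, adjusted p = 0.14), although its groups did not overlap and it passed as higher without sgCtrl library 3 (0.18, adjusted p = 0.02) and with library size scaling (0.35). Slbp, Pold4, Pole3 and Pole4 were named after their values were seen.

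All 12 genes of deoxynucleotide supply were called, 9 lower and 3 higher, beside 34.4% lower and 35.4% higher of all genes tested. Rrm2, the S-phase subunit of ribonucleotide reductase, measured 376, 368 and 435 CPM with sgCtrl and 129, 132 and 149 CPM with sgSgf29 (-1.52, standard error 0.08, adjusted p = 5.9e-13). Dtymk, thymidylate kinase, measured 378, 346 and 355 CPM against 187, 186 and 189.6 CPM (-0.94, adjusted p = 4.7e-11). Samhd1, which degrades deoxynucleotides, moved the other way, with 52.1, 52.1 and 58.0 CPM against 220.5, 219 and 204 CPM (1.99, standard error 0.07, adjusted p = 1.9e-15). None of the 3 genes overlapped between groups. The other 2 higher genes, chosen after their values were seen, were Rrm2b, the subunit of ribonucleotide reductase used outside S phase (1.19), and the salvage kinase Dck (0.99). The ratio of Rrm2 to Rrm2b counts went from 76.2 ± 5.36 to 11.6 ± 1.91 (SD, n = 3). This ratio too was chosen after the values were seen and is a description with no test.

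Genes that govern G1/S and genes of G2 and mitosis changed in both directions. Of 29 G1/S genes tested, 14 were lower and 9 higher (48.3% and 31.0%, beside 34.4% and 35.4% of all genes tested, median -0.16). With library size scaling 6 were lower and 12 higher, beside 2385 lower and 5575 higher of all 11169 genes tested. Cdk4, the G1 kinase, and Fbxo5, an inhibitor of the anaphase-promoting complex, were lower (-0.78 and -0.85, adjusted p = 8.2e-10 and 1e-08), and E2f2 was higher (0.73, adjusted p = 2e-08). E2f1 was lower (-0.41, adjusted p = 2e-05). Of 30 genes of G2 and mitosis tested, 17 were lower and 3 higher (56.7% lower, median -0.27). With library size scaling 11 were lower and 6 higher, beside the same 2385 and 5575 of all genes tested. Among them Bub1, of the spindle checkpoint, and Cdk1, the mitotic kinase, were lower (-1.13 and -0.71, adjusted p = 1.8e-10 and 2.3e-08), and Cdc25b, a phosphatase that activates Cdk1, was higher (1.55, adjusted p = 1.6e-10). Mki67, a marker of cycling cells, measured 289, 302 and 281 CPM with sgCtrl and 244, 269.5 and 301 CPM with sgSgf29, and the groups overlapped (-0.10, adjusted p = 0.24). E2f1 and Mki67 were named after their values were seen. The part that the share of cells in each phase of the cycle had in the replication genes' fall was not tested.

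**Figure D5:**
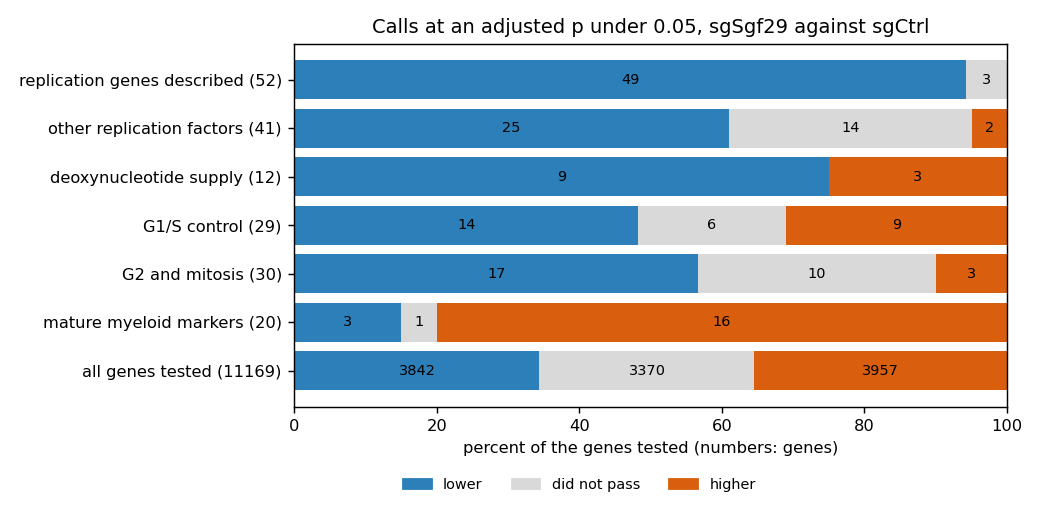
Share of the tested genes of each list that were lower, higher or did not pass with sgSgf29 at an adjusted p under 0.05 (x axis, percent, with the number of genes in each segment). The 52 replication genes have 49 lower and none higher, and all 11169 genes tested have 34.4% lower and 35.4% higher. With library size scaling the 52 genes have 36 lower and 2 higher, and all 11169 genes have 2385 lower and 5575 higher.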

How the data were processed

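MLL-AF9-Cas9+ cells were profiled by RNA-seq in 6 libraries. The authors deposited raw counts per gene in 1 table, in the layout of htseq-count, although the paper's methods name featureCounts. STAR was the aligner in the paper's methods, and the submitters' notes give its version as 2.6.0a, which is not the version that the paper names, and the build as GRCm38. Not given in the sources used here are the annotation, the use of strand and the treatment of multi-mapped reads. The 5 bookkeeping entries (25.8% to 31.4% of the table) entered neither library sizes nor tests. Genes were filtered with filterByExpr (count of 10 at the median library size, 15 in total), scaled by TMM and compared by edgeR 4.0.16 (quasi-likelihood test, R 4.3.3), sgSgf29 against sgCtrl, with Benjamini-Hochberg adjustment over all 11169 genes. Adjusted p-values are from this test unless named otherwise, and the biological coefficient of variation was 6.61%. Ratios of counts were compared with exact permutation tests (Python 3.11.15).

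The genes, lists, tests and alternatives were chosen with earlier results of these data known. Values in every library were given for Mcm2 to Mcm7, Cdt1, Gmnn, Cdc6, Chek1, the gene with the smallest adjusted p in each role and direction, and up to 3 called genes of each other list were named. Genes chosen after their values were seen are named as such. Alternatives used other scalings, filters, thresholds and replicate terms, DESeq2 1.42.0, limma-voom (limma 3.58.1), and the omission of single libraries. The fit was tested on simulated data drawn for this comparison (11169 genes), where it found 99 of 100 2-fold and 92 of 100 1.5-fold changes and made 201 calls, 10 of them false. The real libraries held many more calls, for which that rate may differ. Coordinates and promoter sequences are from RefSeq on GRCm38.p6, and exon lengths and overlaps from GENCODE M21.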

Additional observations from a re-analysis of the deposited data

How the results depend on the processing

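The direction of the replication genes depended little on the processing, apart from scaling by library size alone. Lower genes numbered 46 to 49 of the 52 with every other scaling, filter, threshold and tool and with each library left out, and their median log2 fold change ranged from -0.56 to -0.52 with those settings and from -0.58 to -0.49 with a library left out. With library size scaling the median was -0.32, with all genes at 0.24, and 2385 of all genes were lower and 5575 higher. The cause of the shift was not tested. The same scaling gave 2 higher among the 52, 9 higher among the other replication factors (4 with upper-quartile scaling), 6 lower for G1/S control, and 11 lower and 6 higher for G2 and mitosis. Single genes then changed sign, with values of 0.02 for Mcm4, 0.03 for Mcm5, 0.07 for Rpa1, 0.12 for Dna2 and 0.13 for Mki67. Mcm2, Mcm3, Dbf4, Gins3, Gins4, Pola1, Pold3, Pole2, Rpa3, Chaf1a and, outside the set, Rad17 also lost their call with it. Higher genes among the 52 numbered 1 without a filter on low counts and 0 to 2 with a library left out (2 without sgCtrl library 3). Leaving out a library gave 2 to 4 higher other replication factors (4 without sgCtrl library 3) and 1 to 4 higher genes of G2 and mitosis (1 without sgSgf29 library 3). Same-numbered libraries had deviations that correlated at 0.0414, 0.113 and 0.151, and each library correlated best with its own number. The other pairs ran from -0.136 to 0.0377. The labels name no pairing, and these values do not settle whether the libraries were paired. With the replicate number as a block, 49 of the 52 were lower and 1, Pcna, was higher (adjusted p = 0.017), with 3937 lower and 4059 higher of all genes. It changed no other call among the 52 genes. Each replication gene had 1456 to 29944 counts over the 6 libraries, and with 3 libraries a group the exact permutation test of a ratio cannot go below p = 0.10.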
